A study of Mus musculus with 22 samples.

Results

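Germ cells of the mouse fetal testis were compared with germ cells of the fetal ovary at E12.5 (the number counts days of embryonic development) in embryos of wild-type Tet1 genotype (Tet1-WT). The comparison held 4 of the 22 RNA-seq samples in the series, 2 male libraries and 2 female libraries. Of 30594 autosomal genes in the count table, 16058 passed a filter on low counts and were tested. Genes of the sex chromosomes were kept out of the main account, because the sexes differ in their number of X and Y chromosomes.

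The cells were primordial germ cells (PGCs), the embryonic founders of sperm and eggs, from male Tet1-WT and female Tet1-WT embryos of an intercross of Tet1-heterozygous mice. Both sexes carried the transgene GOF18∆PE-EGFP, a green fluorescent reporter driven by Pou5f1 (Oct4) regulatory sequence, and the cells were isolated by sorting. RNA of 2 to 6 embryos of one sex and genotype was pooled for each library, so a library is a pool and not an animal. Male and female Tet1-KO PGCs of E12.5, male and female Tet1-WT PGCs of E14.5 and Tet1-WT PGCs of E10.5, whose sex the labels do not give, came from the same cross and the same table and served for comparison. Nothing in the labels says whether the 2 libraries of a group came from separate litters or days. The p-values therefore measure the spread between pools, estimated over all 20 libraries of the cross and not from the 4 compared libraries alone.

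Germ cells enter the gonad while they still carry the potential for either sex, and the somatic cells around them direct their fate. In the ovary, bone morphogenetic protein (BMP) and retinoic acid signals lead germ cells into meiosis, with Zglp1 and Stra8 among the earliest genes of that switch. In the testis, FGF9 and an enzyme that degrades retinoic acid hold meiosis back, and a short wave of Nodal signalling with its co-receptor Cripto (Tdgf1) runs in the germ cells before they stop dividing. Nodal signalling switches on its own inhibitors, Lefty1 and Lefty2.

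The libraries held 15298200 and 15261276 counts in the male and 16315488 and 18554602 counts in the female. Levels are given as counts per 1000000 (CPM) on library sizes scaled by the trimmed mean of M-values (TMM). The labelled sex was borne out by the Y-linked genes Ddx3y, Eif2s3y, Kdm5d and Uty, which ranged over 22.3 to 168.8 CPM in the male libraries and 0 to 0.236 CPM in the female libraries. The germ cell marker list, 10 genes, summed to 4964 and 5985 CPM in the male and to 6897 and 7646 CPM in the female, so the labelled cell type was present in all 4 libraries. Some RNA of other cells was present too. Fibroblast-like mesenchyme markers, 15 genes, summed to 2074 and 1319 CPM in the male, against 870 and 1236 CPM in the female. Sertoli cell markers, 16 genes of the supporting cells of the testis, summed to 81.5 and 82.6 CPM in the male and to 23 and 27 CPM in the female. In bulk RNA, fewer cells of a type and less RNA per cell cannot be told apart.

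At E12.5, 77 autosomal genes separated male from female germ cells. In the quasi-likelihood test of edgeR, with Benjamini-Hochberg adjusted p-values over all genes tested, 38 genes were higher in the male (0.237% of those tested) and 39 were lower (0.243%) at an adjusted p under 0.05. All 77 were protein coding, and in all 77 the 2 libraries of one sex lay above both of the other. That separation alone was common, since 23.4% of tested autosomal genes had both male libraries above both female libraries and 21.5% had both below. Among the called genes, 13 of the higher and 12 of the lower differed by more than 4-fold, and 7 in each direction differed by less than 2-fold.

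The size of the set depended on the tool and on single libraries. DESeq2 called 536 genes, including all 77, and limma voom 197, including 75. It was 15 genes without male replicate 1, 25 without male replicate 2, 316 without female replicate 1 and 29 without female replicate 2. The 7 genes called without each of the 4 libraries in turn were Lefty1, Cst9 and Xpnpep1 among the higher genes and Phlda2, Dlx3, Pdpn and Hormad2 among the lower ones. A gene that was not called is not shown to be equal between the sexes.

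**Figure D1:**
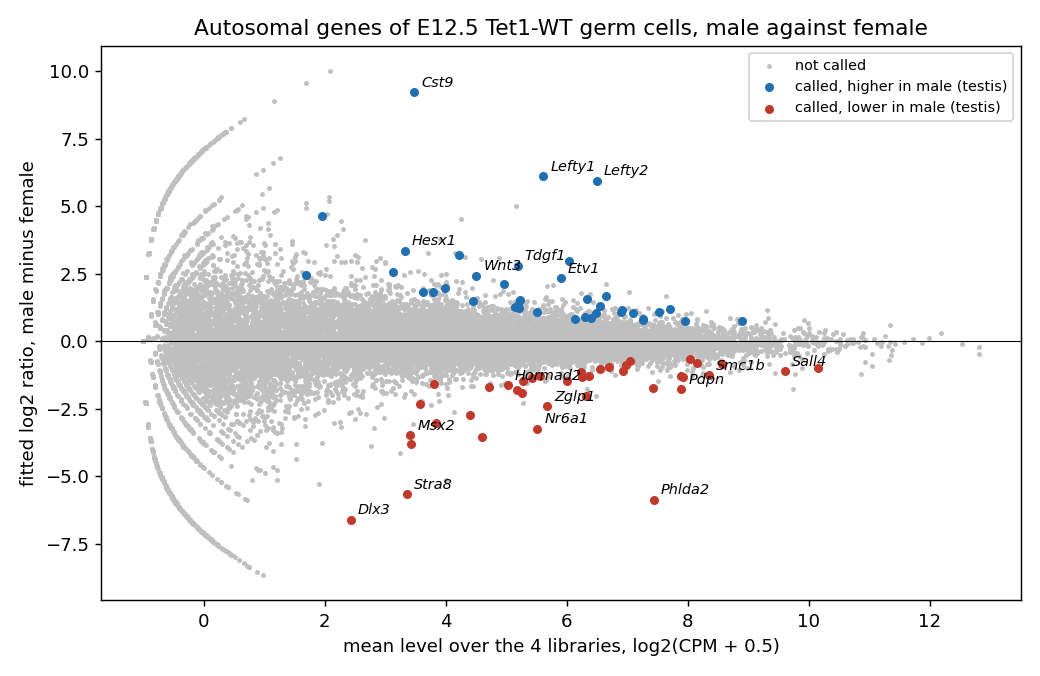
Fitted log2 ratio of male to female E12.5 Tet1-WT germ cells (vertical axis) against the mean level over the 4 libraries in log2(CPM + 0.5) (horizontal axis), 1 point for each tested autosomal gene. The 38 called higher genes (blue) and 39 called lower genes (red) stand at the edges of the grey cloud of genes that were not called, with Lefty1, Lefty2 and Cst9 at the top and Dlx3, Phlda2 and Stra8 at the bottom.

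The start regions of 4 called genes are shown first, because their letters can be read beside the values that follow. These genes were chosen by hand and not by the strength of their calls. No start sequence was available here for several called genes, Lefty1, Lefty2 and Dlx3 among them. Each run is the 250 bases before the annotated start, 5′ to 3′ on the gene's strand, from RefSeq (GRCm38.p6, a later build than the one the counts were made on). Capitals mark matches, on either strand, to AGGTCA (a retinoic acid receptor half-site), CACGTG (an E-box), TTCCCGC (an E2F motif) or AATNNACA (a FOXH1 motif, FOXH1 being the partner of SMAD proteins in Nodal signalling). Stra8 lies on the plus strand of chromosome 6, and the run covers chr6:34920698-34920947. Zglp1 lies on the minus strand of chromosome 9 (chr9:21067094-21067343), Smc1b on the minus strand of chromosome 15 (chr15:85131958-85132207) and Tdgf1 on the minus strand of chromosome 9 (chr9:110946159-110946408).
Stra8: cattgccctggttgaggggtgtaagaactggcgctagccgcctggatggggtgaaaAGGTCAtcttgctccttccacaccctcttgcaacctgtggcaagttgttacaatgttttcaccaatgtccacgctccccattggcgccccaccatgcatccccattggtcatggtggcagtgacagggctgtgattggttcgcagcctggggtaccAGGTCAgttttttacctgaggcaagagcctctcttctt
Zglp1: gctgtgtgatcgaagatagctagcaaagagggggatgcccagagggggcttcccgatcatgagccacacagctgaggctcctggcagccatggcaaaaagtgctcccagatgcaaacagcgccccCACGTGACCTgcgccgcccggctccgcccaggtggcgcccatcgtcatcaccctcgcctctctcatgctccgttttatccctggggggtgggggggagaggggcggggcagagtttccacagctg
Smc1b: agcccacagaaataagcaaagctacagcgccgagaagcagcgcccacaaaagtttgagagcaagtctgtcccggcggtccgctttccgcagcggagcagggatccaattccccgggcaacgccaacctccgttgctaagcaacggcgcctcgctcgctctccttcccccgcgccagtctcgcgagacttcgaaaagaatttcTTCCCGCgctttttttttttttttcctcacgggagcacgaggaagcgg
Tdgf1: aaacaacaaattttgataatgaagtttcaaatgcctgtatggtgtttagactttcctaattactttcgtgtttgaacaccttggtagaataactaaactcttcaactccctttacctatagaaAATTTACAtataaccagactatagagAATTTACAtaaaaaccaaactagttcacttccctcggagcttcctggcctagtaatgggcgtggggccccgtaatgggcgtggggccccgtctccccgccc
Stra8 held 2 copies of AGGTCA, which began 194 and 38 bases before the start. Zglp1 held CACGTG and AGGTCA, the second on the reverse strand and sharing letters with the first. Smc1b held TTCCCGC once, 48 bases before the start, and Tdgf1 held AATNNACA at 2 places, 127 and 101 bases before it. None of these motifs is rare: AGGTCA occurred in 10.9%, CACGTG in 8.12%, TTCCCGC in 6.71% and AATNNACA in 6.5% of 11693 promoters of tested autosomal genes. A match is a description of the letters and not a binding site.

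Genes of the Nodal pathway were among those most raised in the male. Of 14 tested genes of Nodal and Activin signalling, 3 rose (Lefty2, Lefty1 and Tdgf1) and none fell, where 0.237% of all tested autosomal genes rose. Both male libraries lay above both female ones in 5 members, the 3 called genes included, and below both in 1. The shares over all tested autosomal genes were 23.4% and 21.5%. The list's median log2 ratio was 0.193, against 0.002 for all tested autosomal genes. Lefty2, a secreted inhibitor of Nodal, had 166.4 and 187.3 CPM in the male, against 4.36 and 1.42 CPM in the female (log2 ratio 5.95, SE 0.87, adjusted p = 0.0047). Lefty1, its close paralogue, had 87.4 and 102.7 CPM in the male and 2.59 and 0.21 CPM in the female (log2 ratio 6.11, SE 0.92, adjusted p = 0.0052). The sexes did not overlap for either gene, as in all 77 called genes, and the 2 male libraries were close to each other in both. How reads that align to both paralogues were counted is not given in the sources used here, so the split between Lefty1 and Lefty2 is less certain than their sum.

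Tdgf1, the co-receptor, had 54.5 and 71.4 CPM in the male and 11.4 and 6.57 CPM in the female (log2 ratio 2.81, SE 0.60, adjusted p = 0.0495). Its call stood at the threshold and was lost when p-values were adjusted over autosomal genes alone (adjusted p = 0.0594). Nodal itself, the ligand, had 19.8 and 34.2 CPM in the male and 2.47 and 1.42 CPM in the female, and did not pass (log2 ratio 3.79, SE 1.16, adjusted p = 0.158). The sexes did not overlap in Nodal, but its standard error was larger than those of Lefty1 and Lefty2.

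Other genes that rose encode transcription factors, signalling proteins and enzymes. Cst9 (testatin), a cystatin-family gene of the fetal testis that is also on the Sertoli list, had 19.9 and 22.4 CPM in the male, against 0.059 and 0 CPM in the female. With 1 read in the 2 female libraries together, its ratio was 761 with an exact 95% counting interval of 136 to 30110. Hesx1, a homeobox gene of the anterior forebrain and pituitary, had 17.5 and 17.1 CPM in the male and 1.36 and 2.00 CPM in the female (log2 ratio 3.36, SE 0.53, adjusted p = 0.0098). Its 2 male libraries were nearly alike and both far above the female ones.

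Signalling genes were part of the set. Wnt3, which encodes a secreted WNT ligand, had 28.9 and 46.3 CPM in the male and 8.43 and 5.47 CPM in the female (log2 ratio 2.44, SE 0.48, adjusted p = 0.0292). Etv1, an ETS transcription factor gene, had 96.0 and 102.4 CPM in the male and 14.02 and 25.0 CPM in the female (log2 ratio 2.34, SE 0.45, adjusted p = 0.028). Epha2, an ephrin receptor gene, had 18.99 and 22.7 CPM in the male and 7.66 and 4.15 CPM in the female (log2 ratio 1.82). Male and female libraries were apart in all 3 genes, a condition of the rule that named them.

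Further genes among the 15 largest rises were Gramd1b, a sterol transfer protein gene (log2 ratio 3.21), Radil, a Rap GTPase effector gene (2.59), Irgm1, an immunity-related GTPase gene (2.12), Serpini1, which encodes neuroserpin (1.97), and Miga2, a gene of mitochondrial fusion (1.83). Gramd1b had 32.2 and 33.4 CPM in the male and 4.48 and 2.63 CPM in the female. Irgm1 had 41.6 and 58.2 CPM in the male and 14.02 and 8.99 CPM in the female. Annotated exons of Gramd1b overlap genes on the opposite strand and those of Miga2 overlap a gene on the same strand, and the strand setting of the counting is not given, so part of their counts may belong to those genes.

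Phlda2 had the smallest p of the 77 called genes. It is an imprinted gene, expressed from the maternal copy in somatic and placental tissue, where it restrains placental growth. Phlda2 had 5.99 and 5.70 CPM in the male, against 249.8 and 430.5 CPM in the female (log2 ratio -5.86, SE 0.60, adjusted p = 0.00023). Its neighbour Slc22a18, imprinted in the same domain and named after its value was seen, had 0 and 1.69 CPM in the male and 31.6 and 28.6 CPM in the female, and did not pass (log2 ratio -5.15, SE 1.31, adjusted p = 0.0885). Phlda2 was the 1 called gene among 38 tested imprinted genes, whose median log2 ratio was 0.14, with 21 positive and 17 negative. The share called lower over all tested autosomal genes was 0.243%.

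**Figure D2:**
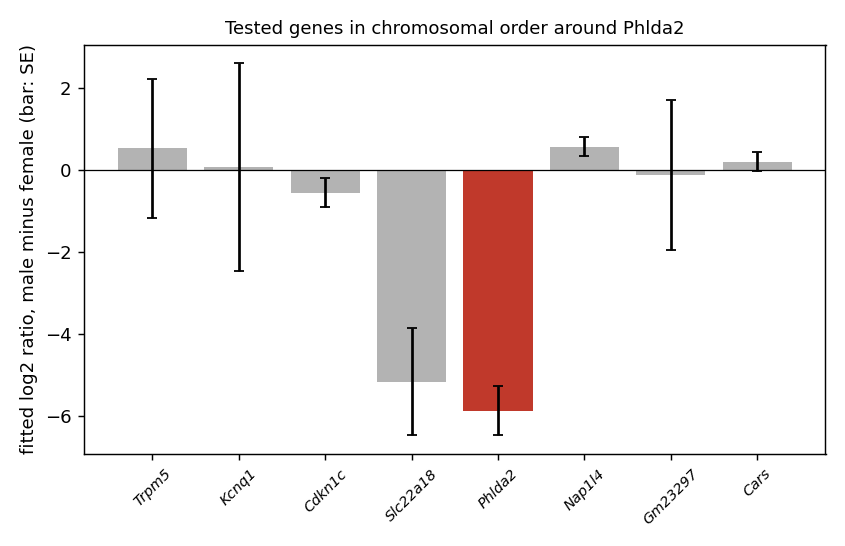
Fitted log2 ratio of male to female E12.5 Tet1-WT germ cells (bars, with SE) for the tested genes around Phlda2 on chromosome 7, in chromosomal order. The red bar passed the test (lower in the male) and the grey bars did not: Phlda2 at -5.86 stands beside Slc22a18 at -5.15.

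Dlx3, a homeobox gene, was nearly silent in the male. It had 0 and 0.19 CPM in the male and 10.3 and 9.15 CPM in the female, and with 3 male reads in all its female-over-male ratio was 105 with an exact 95% counting interval of 35.5 to 510. Nr6a1, which encodes germ cell nuclear factor, a nuclear receptor that represses Pou5f1 in differentiating cells, had 7.56 and 9.78 CPM in the male and 81.1 and 82.0 CPM in the female (log2 ratio -3.23, SE 0.43, adjusted p = 0.002). Its 2 female libraries were nearly alike and both far above the male ones.

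Of 10 tested meiotic entry genes, 3 fell in the male (Zglp1, Stra8 and Smc1b), where 0.243% of all tested autosomal genes fell. All 10 had a negative log2 ratio and 7 had both male libraries below both female ones, against 21.5% of all tested autosomal genes. However, the ratios of Gm4969 and Dazl changed sign when 1 library was left out. The median log2 ratio of the list was -1.04. Zglp1, a zinc-finger factor gene that in mouse directs germ cells toward the oocyte fate in response to BMP, had 14.2 and 18.1 CPM in the male and 94.3 and 76.5 CPM in the female (log2 ratio -2.41, SE 0.36, adjusted p = 0.0052). An annotated exon of another gene overlaps Zglp1 on the same strand. Stra8, a retinoic-acid-induced gene needed to start meiosis, had 0.73 and 0 CPM in the male and 31.3 and 6.94 CPM in the female (log2 ratio -5.67, SE 0.89, adjusted p = 0.0086). Most of the female level came from replicate 1, and limma voom gave an adjusted p of 0.0595.

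Smc1b, which encodes a cohesin subunit of meiotic chromosomes, had 170.1 and 216.5 CPM in the male and 454.9 and 461.1 CPM in the female (log2 ratio -1.24, SE 0.25, adjusted p = 0.0349). Rec8, the meiotic cohesin partner, had 6.23 and 3.26 CPM in the male and 31.5 and 27.1 CPM in the female, and did not pass (log2 ratio -2.62, SE 1.02, adjusted p = 0.282). Gm4969 (Meiosin), the partner of Stra8, had 2.66 and 1.504 CPM in the male and 2.42 and 2.05 CPM in the female, so the sexes overlapped. Dazl, an RNA-binding protein gene of germ cells, had 1049 and 1404 CPM in the male and 2067 and 1164 CPM in the female, also overlapping.

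The genes of meiotic prophase leaned the same way with few calls. Smc1b, Rec8, Stag3 and Sycp3 are on this list and on that of meiotic entry, so the lists are not independent. Of 31 tested genes, 2 fell (Hormad2 and Smc1b), against 0.243% of all tested autosomal genes. A negative log2 ratio was found in 30 of the 31, and the median was -0.968. In 23 of them both male libraries lay below both female ones, against 21.5% of all tested autosomal genes. Hormad2, a chromosome axis protein gene of meiosis, had 16.1 and 15.2 CPM in the male and 55.6 and 41.1 CPM in the female (log2 ratio -1.63, SE 0.21, adjusted p = 0.0017). Synaptonemal complex genes had intermediate values. Syce2 had 155.5 and 169.2 CPM in the male and 287.5 and 396.0 CPM in the female (adjusted p = 0.101). Sycp1 had 30.0 and 42.7 CPM in the male and 107.1 and 58.5 CPM in the female (adjusted p = 0.145). Sycp3 had 37.9 and 38.5 CPM in the male and 79.7 and 56.3 CPM in the female (adjusted p = 0.127). None of the 3 overlapped between the sexes and none was called. Stag3, a cohesin gene already high in both sexes, had 161.7 and 206.7 CPM in the male and 212.1 and 238.0 CPM in the female.

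Zglp1 is also among the genes that respond to BMP, and a part of those genes was lower in the male. Of 17 tested BMP targets and receptors, 2 fell (Msx2 and Zglp1), against 0.243% of all tested autosomal genes, and the median log2 ratio was -0.396. Both male libraries lay below both female ones in 7 members and above both in 5. The shares over all tested autosomal genes were 21.5% and 23.4%, so the list did not lean in 1 direction only. Msx2, a homeobox target of BMP, had 1.75 and 1.57 CPM in the male and 26.6 and 10.7 CPM in the female (log2 ratio -3.48, SE 0.54, adjusted p = 0.0057). Gata2, a BMP-induced zinc-finger gene, had 44.8 and 29.3 CPM in the male and 133.5 and 115.3 CPM in the female (log2 ratio -1.75, SE 0.39, adjusted p = 0.0575). Msx1 had 2.06 and 1.13 CPM in the male and 10.49 and 10.2 CPM in the female (log2 ratio -2.69, SE 0.61, adjusted p = 0.0575). Gata2 and Msx1 were apart between the sexes and missed the threshold narrowly.

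The Id genes, the most general BMP targets, overlapped between the sexes in these Tet1-WT libraries. Id1 had 58.8 and 29.8 CPM in the male and 135.0 and 39.0 CPM in the female. Id2 had 339.4 and 126.5 CPM in the male and 323.9 and 289.4 CPM in the female. Id3 had 514.0 and 342.4 CPM in the male and 733.8 and 340.1 CPM in the female. The spread within a sex was as wide as the difference between the sexes in these 3 genes.

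**Figure D3:**
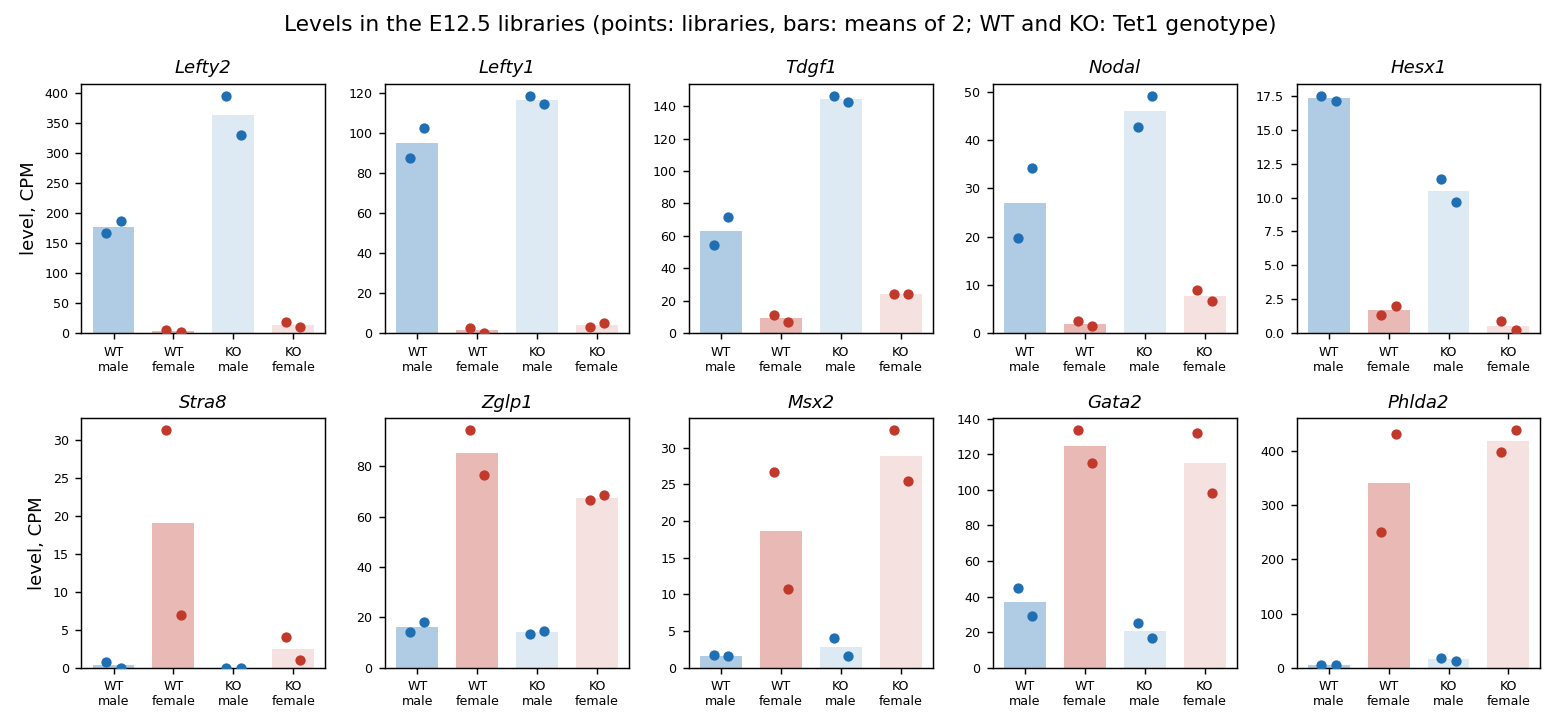
Levels in CPM of 10 genes in the E12.5 libraries, with male left of female for Tet1-WT and then for Tet1-KO (points are libraries, bars the means of 2). Lefty2, Lefty1, Tdgf1, Nodal and Hesx1 of the top row are high in the 4 male libraries and low in the 4 female libraries, and Zglp1, Msx2, Gata2 and Phlda2 of the bottom row the reverse; Stra8 reaches 31.3 CPM in 1 female Tet1-WT library and is at 6.94 CPM or less in all others.

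Retinoic acid, WNT and FGF genes gave few calls. None of 16 tested retinoic acid response genes passed (median log2 ratio 0.207). The nearest, named after its value was seen, was Aldh1a1, a gene for an enzyme that makes retinoic acid, with 9.44 and 7.08 CPM in the male and 0.47 and 0.26 CPM in the female (log2 ratio 4.47, adjusted p = 0.0594). None of 12 WNT response genes passed (median -0.798). Axin2, the standard WNT target, had 6.53 and 7.96 CPM in the male and 16.1 and 17.4 CPM in the female (log2 ratio -1.21, adjusted p = 0.111). Of 12 FGF signalling genes 1 fell, Fgfr3, where 0.243% of all tested autosomal genes fell. This receptor gene had 10.47 and 13.7 CPM in the male and 35.6 and 42.9 CPM in the female (log2 ratio -1.70, SE 0.33, adjusted p = 0.0292). Dusp6, a feedback target of FGF signalling, had 158.5 and 151.9 CPM in the male and 67.7 and 65.6 CPM in the female, and did not pass (log2 ratio 1.22, adjusted p = 0.0768).

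Of 22 tested pluripotency genes, 1 rose (Tdgf1) and 2 fell (Sall4 and Lin28a), and the median log2 ratio was -0.094. Over all tested autosomal genes 0.237% rose and 0.243% fell. Sall4, a zinc-finger factor gene of stem cells and germ cells, had 445.9 and 547.2 CPM in the male and 845.9 and 1285 CPM in the female (log2 ratio -1.10, SE 0.22, adjusted p = 0.0313). Lin28a, which blocks let-7 microRNA maturation, had 33.8 and 52.9 CPM in the male and 92.7 and 122.6 CPM in the female (log2 ratio -1.31, SE 0.28, adjusted p = 0.0468). Exons of both genes overlap a gene on the opposite strand. The core factors were not called: Pou5f1 had 153.0 and 154.4 CPM in the male and 114.1 and 98.6 CPM in the female, Sox2 had 29.9 and 32.1 CPM in the male and 43.5 and 64.2 CPM in the female, and Nanog had 83.6 and 125.9 CPM in the male and 144.4 and 105.7 CPM in the female.

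Of the 10 germ cell markers, 1 fell in the male, Sall4, against 0.243% of all tested autosomal genes, and the median log2 ratio was -0.366. The other 9 were not called. Dppa3, a maternal-effect gene of germ cells, had 2263 and 2421 CPM in the male and 2363 and 3543 CPM in the female. Ddx4, the vasa helicase gene, had 408.3 and 561.8 CPM in the male and 654.7 and 647.9 CPM in the female, and the receptor gene Kit had 424.4 and 607.0 CPM in the male and 511.5 and 650.0 CPM in the female. Nanos2, which directs male differentiation, was still at 0 and 0.38 CPM in the male and 0 and 0 CPM in the female. Nanos3, which protects PGCs from death, had 24.8 and 31.3 CPM in the male and 21.97 and 30.5 CPM in the female. Of 21 tested genes of male germ cell differentiation 1 passed, Lin28a, which was lower in the male, against 0.243% of all tested autosomal genes. Its call stood near the threshold (edgeR, adjusted p = 0.0468). The edgeR fit on the 4 compared libraries alone did not call it (adjusted p = 0.118).

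No member was called in the lists of early germ cell factors (14 tested, median log2 ratio -0.306), the oocyte programme (11, median -0.335), the piRNA pathway (22, median -0.329), DNA methylation and demethylation (19, median 0.281) and the mitotic cell cycle (33, median 0.062). Of 25 germline genes sensitive to DNA methylation, 1 fell, Stra8 (median -0.428), against 0.243% of all tested autosomal genes.

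The other genes among the 15 largest falls had varied roles. Sct, which encodes the hormone secretin, had 3.39 and 2.63 CPM in the male and 31.6 and 17.7 CPM in the female (log2 ratio -3.03, SE 0.50, adjusted p = 0.0094). Pdpn, which encodes the surface glycoprotein podoplanin, had 100.9 and 112.6 CPM in the male and 278.8 and 455.3 CPM in the female (log2 ratio -1.78, SE 0.20, adjusted p = 0.00051). Phf19, a gene of a Polycomb-associated protein, had 23.8 and 39.2 CPM in the male and 145.2 and 109.3 CPM in the female (log2 ratio -2.01, adjusted p = 0.0098). The sexes did not overlap in any of the 3 genes, which the rule that named them required. Dync1i1, a dynein subunit gene (log2 ratio -3.80), Calcoco2, an autophagy receptor gene (-3.55), Lonrf2 (-2.71), Sh3bgr (-2.33), Pik3c2b, a lipid kinase gene (-1.90), and Tmem159 (-1.82) completed the 15.

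**Figure D4:**
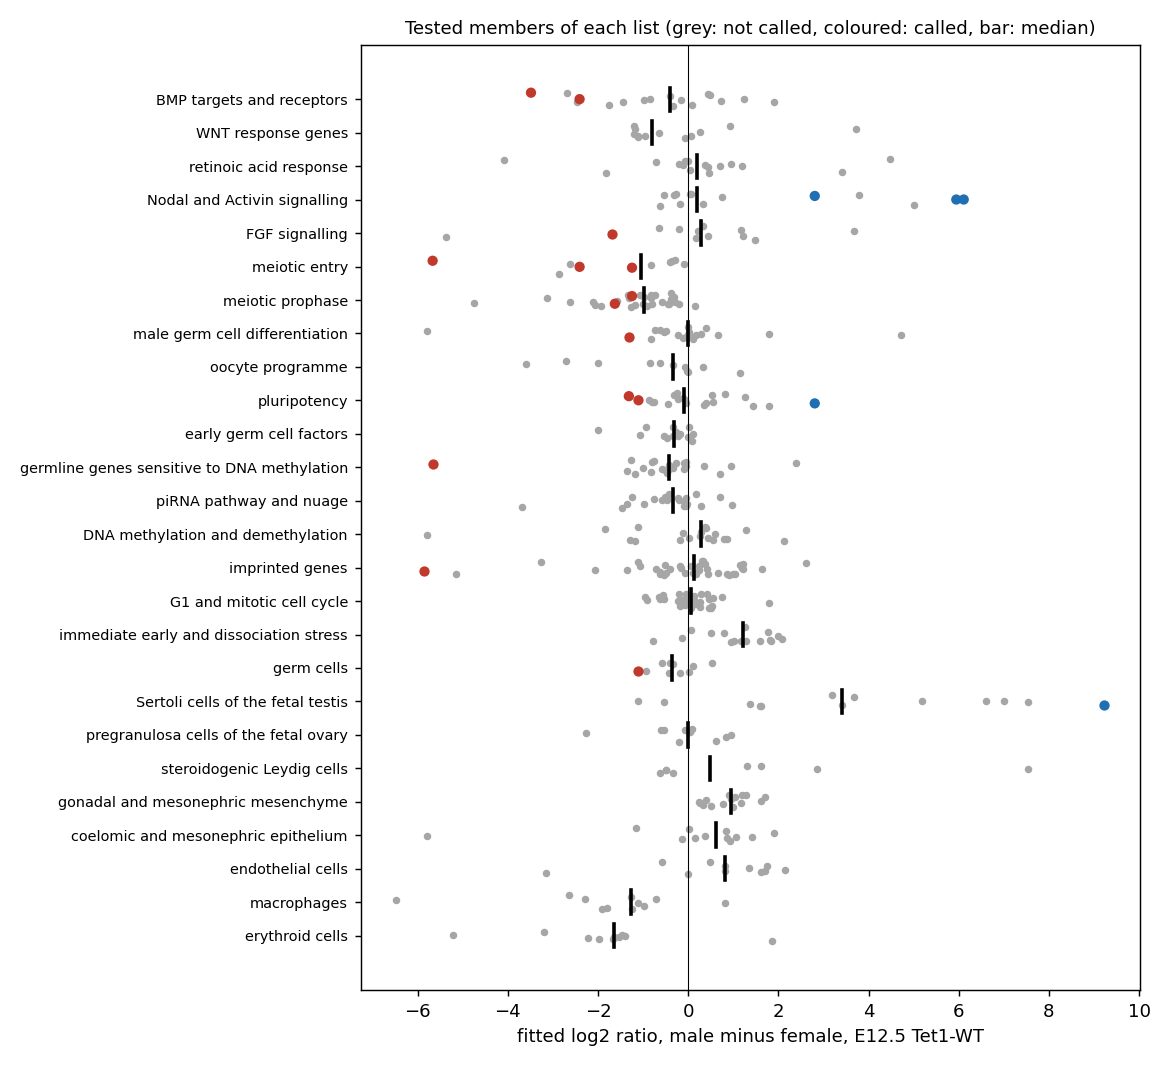
Fitted log2 ratio of male to female E12.5 Tet1-WT germ cells for the tested members of each gene list, with called members in blue (higher) or red (lower) and the median as a black bar. Meiotic entry and prophase lie to the left with medians of -1.04 and -0.968, Nodal signalling has 3 called members far to the right, and the Sertoli list has its median at 3.41.

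Markers of somatic cells also differed between the libraries, beside the differences above. Of 13 tested autosomal Sertoli markers, 11 were positive, 1 was called (Cst9), and the median log2 ratio was 3.41. The share called higher over all tested autosomal genes was 0.237%. Sox9, the defining Sertoli factor gene, had 25.3 and 15.4 CPM in the male and 6.01 and 7.52 CPM in the female (adjusted p = 0.226), and Amh, which encodes the Sertoli hormone, had 1.51 and 1.19 CPM in the male and 0 and 0 CPM in the female. All 15 mesenchyme markers were positive with a median of 0.946 and none was called. Col3a1, a collagen gene, had 270.8 and 191.0 CPM in the male and 116.4 and 115.4 CPM in the female, and Pdgfrb had 138.5 and 109.0 CPM in the male and 38.3 and 43.0 CPM in the female.

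In the same libraries 14 of 16 tested immediate early genes were positive (median 1.22, none called), and their list summed to 838.4 and 514.0 CPM in the male and 269.0 and 261.4 CPM in the female. Fos, a gene that responds within minutes to stimulation or tissue dissociation, had 286.6 and 120.0 CPM in the male and 42.6 and 70.8 CPM in the female. Macrophage and erythroid markers leaned the other way (medians -1.27 and -1.65, none called), with sums of at most 27.7 and 174 CPM in any of the 4 libraries. No pregranulosa, Leydig, epithelial or endothelial marker was called (medians -0.013, 0.483, 0.616 and 0.812). The pregranulosa gene Foxl2 was too low to be tested (0 and 0 CPM in the male, 0.41 and 0 CPM in the female), and Wnt4 had 8.11 and 7.08 CPM in the male and 4.83 and 3.05 CPM in the female. The part of these cells in the differences above was not tested.

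The E12.5 Tet1-KO libraries gave the same contrast in separate pools. Mesenchyme markers summed to 284.7 and 184.4 CPM in the male and 49.3 and 53.6 CPM in the female there, lower sums than in Tet1-WT. Of these markers, 3 of 15 were called higher in the male (Col3a1, Nr2f2 and Col1a1, named after their values were seen), with a median log2 ratio of 1.84, against 0 called and a median of 0.946 in Tet1-WT. The share called higher over all tested autosomal genes in Tet1-KO was 0.181%. Sertoli markers summed to 33 and 26.5 CPM in the Tet1-KO male and 10.3 and 10.4 CPM in the Tet1-KO female, with 1 called (Cst9) and a median of 1.97. The part of these cells in the Tet1-KO differences was not tested. In those 4 libraries 29 autosomal genes were called higher in the male (0.181%) and 21 lower (0.131%). Leaving out 1 of these libraries gave 7 or 2 calls without either female library and 14 or 21 without either male one, DESeq2 called 247 genes, and a fit on the 4 libraries alone called 502. Of the 38 genes higher in Tet1-WT male cells, 36 had the same sign in Tet1-KO and 11 were called. Of the 39 lower genes, all 39 had the same sign and 9 were called. Among all tested autosomal genes 58.1% had the same sign in both genotypes. The 2 exceptions, Got2 and Ctsa, had log2 ratios of -0.57 and -0.12 in Tet1-KO, and neither was called there.

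Lefty2 had 395.7 and 329.4 CPM in Tet1-KO male cells, against 17.7 and 9.66 CPM in Tet1-KO female cells (log2 ratio 4.72, adjusted p = 0.0152). Zglp1 had 13.6 and 14.7 CPM in the male and 66.6 and 68.4 CPM in the female of that genotype (log2 ratio -2.25, adjusted p = 0.0115). Stra8 had 0 and 0 CPM in the male and 4.02 and 0.99 CPM in the female, and did not pass (adjusted p = 0.133). Lefty2 and Zglp1 kept the order of the sexes seen in Tet1-WT, and Stra8 was lower in these female pools than in the Tet1-WT ones. Id1, Id2 and Id3, which overlapped in Tet1-WT, were lower in both Tet1-KO male libraries than in both female ones. Id1 had 18.4 and 14.7 CPM in the male and 97.7 and 85.1 CPM in the female (log2 ratio -2.47, adjusted p = 0.0164), and Id2 and Id3 were not called. Of the 17 BMP targets and receptors, 4 were called lower in the Tet1-KO male, against 0.131% of all tested autosomal genes. No autosomal gene was called for a difference of the male against female effect between Tet1-KO and Tet1-WT by edgeR (944 at an unadjusted p under 0.05) or limma voom, whereas DESeq2 called 21 and edgeR called 17 without female Tet1-WT replicate 1. A count of 0 does not show that the sex difference was the same in both genotypes.

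At E14.5 the contrast covered far more genes. In Tet1-WT, 2342 autosomal genes were called higher in the male (14.6%) and 2268 lower (14.1%), and without female replicate 1 of that stage 2638 genes were called in all. Of the 38 genes higher at E12.5, 37 were positive at E14.5 and 35 were called. The exception was Xpnpep1, an aminopeptidase gene, with a log2 ratio of 1.30 at E12.5 and -0.11 at E14.5. Of the 39 genes lower at E12.5, 32 were negative at E14.5 and 24 were called. The other 7 were Sall4, which was called higher in the male at E14.5 (log2 ratio 1.24), and Pik3c2b, Kctd6, Cpne5, Lin28a, Insig1 and Mier3, which were not called. Among all tested autosomal genes 57.4% had the same sign at both stages. Mesenchyme markers summed to 115.5 and 102.8 CPM in the E14.5 male and to 51.9 and 46.1 CPM in the E14.5 female, lower sums than at E12.5. The part of other cells in the differences between stages was not tested.

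The sex difference itself changed between the stages for 1998 autosomal genes (12.4%), among them 17 of the 38 higher genes and 14 of the 39 lower ones. It was 1065 genes without E12.5 male replicate 1 and 926 without E14.5 female replicate 1. These 77 genes were called in the E12.5 libraries that also enter this difference, so the choice of genes and the difference are not independent. Of the 17 higher genes, 15 had a larger ratio at E14.5, and the other 2 were Xpnpep1 and Rrp1, a ribosome biogenesis gene. Of the 14 lower genes, 4 were farther apart at E14.5 (Sct, Prom1, Smc1b and Stk38l) and 10 were nearer or reversed (Zglp1, Pdpn, Sall4, Lin28a, Pik3c2b, Kctd6, Mreg, Cpne5, Insig1 and Mier3).

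Single genes followed different courses. Tdgf1 had 12.03 and 5.35 CPM at E10.5, and at E14.5 it had 57.6 and 30.7 CPM in the male and 0.20 and 0 CPM in the female. Stra8 had 0 and 0.054 CPM at E10.5, and at E14.5 it had 1.66 and 1.40 CPM in the male and 765.7 and 574.8 CPM in the female. Smc1b had 5.71 and 11.7 CPM at E10.5, and at E14.5 it had 354.0 and 327.0 CPM in the male and 4396 and 3657 CPM in the female. The 3 genes were lower in E10.5 cells than in the E12.5 libraries of the sex in which they were high.

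Zglp1 was called at E12.5 and not at E14.5. It had 2.54 and 1.03 CPM at E10.5, and at E14.5 it had 39.0 and 63.0 CPM in the male and 69.6 and 70.0 CPM in the female (log2 ratio -0.45, adjusted p = 0.36). The change of its sex difference from E12.5 to E14.5 was 1.96 on the log2 scale (adjusted p = 0.0169). Phlda2 had 70.5 and 55.3 CPM at E10.5, between the sexes of E12.5, and at E14.5 it had 0 and 1.44 CPM in the male and 64.4 and 138.3 CPM in the female. Sall4 had 426.3 and 319.4 CPM at E10.5, and at E14.5 it had 623.4 and 572.4 CPM in the male and 221.6 and 284.5 CPM in the female.

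**Figure D5:**
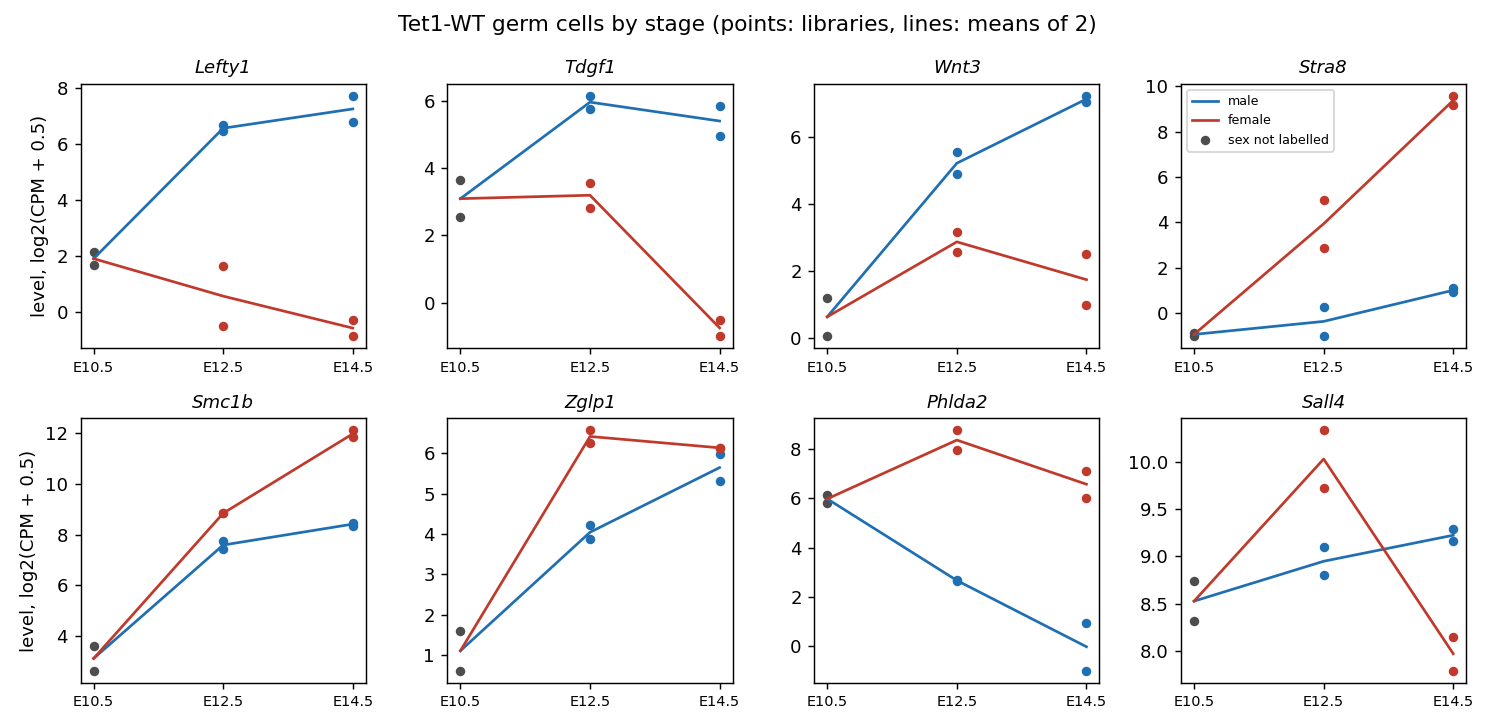
Levels of 8 genes in Tet1-WT germ cells at E10.5, E12.5 and E14.5 in log2(CPM + 0.5) (points are libraries, lines join means of 2 libraries of the male in blue and of the female in red, both from the E10.5 cells in grey). Lefty1, Tdgf1 and Wnt3 part upward in the male, Stra8 and Smc1b upward in the female, Zglp1 is apart at E12.5 and near together at E14.5, and Sall4 crosses over.

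The mean level at E10.5 was set beside the mean of each sex at E12.5 for the called genes. For the 38 genes higher in the male, the E10.5 level lay between the sexes in 24, below both in 10 and above both in 4, and the male mean was the farther from E10.5 in 22. For the 39 genes lower in the male, it lay below both sexes in 20, between them in 18 and above both in 1, and the female mean was the farther in 32. The median difference from E10.5 for the genes lower in the male was 0.006 on the log2 scale in the male and 1.73 in the female. For the genes higher in the male it was 0.80 in the male and -0.59 in the female. For the genes lower in the male, the median female level therefore lay above that of E10.5 cells and the median male level near it. These genes were chosen by their difference at E12.5, and no share over all tested genes was computed. In the E10.5 libraries germ cell markers summed to 1722 and 1416 CPM, mesenchyme markers to 1785 and 2123 CPM and erythroid markers to 135 and 1840 CPM. The part of this make-up in the differences from E10.5 was not tested.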

How the data were processed

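RNA was measured by sequencing of polyadenylated transcripts amplified from sorted cells. The authors deposited raw counts of reads per Ensembl gene, and per the submitters' processing notes reads were trimmed with Trimmomatic and handled with Bowtie 0.12.8, TopHat2 2.0.2 and HTSeq 0.5.3p9 on the mouse build mm9. Strand setting and treatment of reads that align more than once are not given in the sources used here. PCR copies were not marked by molecular identifiers, so counting intervals cover counting error only.

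All 20 libraries of the Tet1 cross (10 groups of 2) were fitted together with edgeR 4.0.16 in R 4.3.3 (filterByExpr with a minimum count of 10 and a minimum total of 15, TMM scaling, robust quasi-likelihood fit, prior count 0.125). The fit had 10 residual degrees of freedom and a biological coefficient of variation of 0.46. P-values were adjusted by Benjamini-Hochberg over all 17567 genes tested, sex chromosomes included, and called under 0.05. CPM are on TMM-scaled library sizes. SE is the absolute fitted log2 ratio over the square root of its F statistic. The 2 libraries of each Tet1-KO group share a column name and carry no replicate number. Over all tested autosomal genes, the deviations of same-numbered male and female Tet1-WT libraries had correlations of 0.0148 at E12.5 and -0.0199 at E14.5. These values cannot show whether such libraries share a litter or day. Tests were checked on simulated counts, in which 95 of 100 changes of 16-fold and 25 of 100 changes of 4-fold were called. Most changes of 4-fold were thus missed, so genes that were not called may still differ. The simulated counts had a coefficient of variation of 0.46 for every gene, whereas the fit to the data lets it differ between genes. DESeq2 1.42.0 and limma 3.58.1 (voom) were alternatives. A second table of E10.5 cells from another cross was not used here.

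The gene lists, the members and the rule for named genes were chosen with earlier results of these data known. The rule named the called genes with the 15 largest rises and those with the 15 largest falls, given a group mean of at least 5 CPM and non-overlapping libraries, up to 6 called members of each list, up to 3 of its highest members where fewer than 3 were called, and a fixed set of sex-determination and germ cell genes. Genes given only for their sign or course in other libraries (Got2, Ctsa, Xpnpep1, Rrp1, Prom1, Stk38l, Kctd6, Cpne5, Insig1, Mier3 and Mreg), and the marker Pdgfrb, were named after their values were seen. List members were matched by symbol or RefSeq synonym. Some genes are not reported here.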

Additional observations from a re-analysis of the deposited data

Results flagged for a closer look

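The sex difference itself changed between E12.5 and E14.5 in Tet1-WT cells for the genes below, by a test of the difference of the 2 log2 ratios (edgeR, adjusted p under 0.05), and each value is the E14.5 ratio minus the E12.5 ratio. Among genes higher in the male at E12.5, it was larger at E14.5 for Hesx1 by 11.40, Tdgf1 by 5.48, Irgm1 by 5.33, Wnt3 by 3.05, Etv1 by 2.70, Ctsa by 1.63 and Serpini1 by 1.54, and the change was -0.83 for Rrp1 and -1.41 for Xpnpep1. The female E14.5 libraries held no Hesx1 read, so its value is a fitted one that depends on the prior count. Tdgf1 had 0.20 and 0 CPM in those female libraries, so its value also depends on few reads. The male means of Tdgf1, Etv1 and Ctsa were lower at E14.5 than at E12.5, and those of Hesx1, Irgm1, Wnt3 and Serpini1 were higher. Among genes lower in the male at E12.5, the change was 2.34 for Sall4, 1.96 for Zglp1, 1.94 for Pik3c2b, 1.91 for Cpne5, 1.75 for Insig1, 1.72 for Kctd6, 1.70 for Lin28a, 1.49 for Pdpn, 1.31 for Mreg and 0.95 for Mier3, toward or past equality. It was -0.69 for Stk38l, -1.95 for Prom1, -2.32 for Smc1b and -4.36 for Sct, away from equality.

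Genes that were not called at E12.5 changed as well. In germ cell and pluripotency genes the change was 4.16 for Nanos3, 3.49 for Dppa3, 3.42 for Nanog, 2.22 for Pou5f1 and 1.67 for Sox2, and it was 2.35 for the FGF target Dusp6. In meiotic genes it was -1.38 for Syce2, -1.54 for Stag3, -2.49 for Sycp3 and -6.71 for Gm4969. In BMP targets it was -3.06 for Id3, -3.45 for Id2, -3.49 for Msx1, -3.68 for Gata2 and -4.63 for Id1. In markers of other cells and of dissociation it was 4.10 for Sox9, -2.80 for Col3a1, -4.06 for Pdgfrb and -4.77 for Fos. At E14.5 Sox9 had 3.92 and 3.60 CPM in the male and 0.10 and 0 CPM in the female, lower in both sexes than at E12.5. Pdgfrb had 0.18 and 0.60 CPM in the E14.5 male and 2.87 and 1.59 CPM in the E14.5 female. The sizes of these changes therefore depend on few reads at E14.5.

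Outside the autosomes, 19 of 725 tested X-linked genes were called at E12.5 in Tet1-WT, and all 19 were lower in the male.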

How the results depend on the processing

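In Tet1-WT at E12.5 all 77 called genes kept their sign under every alternative tried. The sexes did not overlap in any of the 77 and each alternative reused the same libraries. A change of sign was therefore unlikely from the outset, and the kept signs are no separate support. DESeq2 called 536 genes (302 higher and 234 lower in the male), including all 77, limma voom 197 (119 and 78), including 75, and a fit with no filter beyond 1 count 499, including 75. A fit on the 4 libraries alone called 37, of which 20 were among the 77. Adjustment over autosomal genes alone gave 60 genes, scaling by DESeq2's size factors 87 and TMM on autosomes 89. Leaving out 1 library gave 15 to 316. In Tet1-KO at E12.5 the 50 calls became 247 (DESeq2), 372 (no filter), 502 (its 4 libraries alone) and 2 to 21 (leaving out 1 library). For the difference between genotypes, the 0 calls became 21 (DESeq2), 103 (no filter) and 0 to 17 (leaving out 1 library). At E14.5 the 4610 calls became 2638 to 3534, and for the stage difference the 1998 became 926 to 1794, when 1 library was left out. The cause of these shifts was not tested. With the replicate number as a block, 66 genes were called at E12.5, 4342 at E14.5 and 1840 for the stage difference. Of the 77 genes, 54 were still called at E12.5 with that block. The deviations of same-numbered male and female libraries had correlations of 0.0148 at E12.5 and -0.0199 at E14.5. These values cannot show whether same-numbered libraries share a litter or day, since a shared effect need not act alike in both sexes. No paired analysis was possible in Tet1-KO because those columns carry no replicate number. Leaving out 1 library, the log2 ratio of genes that were not called changed sign within -0.74 to 0.095 for Dazl, -0.58 to 0.0017 for Dppa3, -0.55 to 0.27 for Gm4969, -1.59 to 0.20 for Id1, -1.26 to 0.16 for Id2, -0.76 to 0.35 for Id3, -0.44 to 0.081 for Kit, -0.57 to 0.025 for Nanog, -0.10 to 0.37 for Nanos3 and 0 to 5.71 for Nanos2, whose male counts were all in 1 library. Limma voom moved the median of all genes at E14.5 by -0.129. On unscaled library totals the Sertoli markers summed to 88.1 and 86.4 CPM in the male, against 24 and 27.6 CPM in the female. With 2 libraries a group, the precision of each ratio is limited.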
